A study of Homo sapiens with 12 samples.

Results

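The carcinoembryonic antigen-related cell adhesion molecules CEACAM1, CEACAM5, CEACAM6 and CEACAM7 are 4 of the 20046 genes named on an Illumina bead array, and were measured by 6 of its 47231 probes, 3 for CEACAM1 and 1 for each of the others. A probe was taken as a member where its only gene symbol in the platform annotation was one of these names. The 12 arrays held RNA of Caco-2 cells, which come from a human colon tumour and resemble intestinal epithelium in culture, in 5 groups. The OE control group (n = 3) received the vector pCMV-Neo and the OE Sirt1 group (n = 3) the SIRT1 expression construct pCMV-ENTRY Sirt1. The siRNA control group (n = 2) received a scrambled siRNA of low GC content, and KD1 (n = 2) and KD2 (n = 2) each received 1 of a pair of SIRT1 siRNAs with different target sites. The siRNA cells were lysed after 72 h, and the series describes all replicates as biological. SIRT1 is an NAD-dependent deacetylase. All cells were transfected, none was untreated, and the plasmid and siRNA arrays differ in what was transfected. The family was chosen by measured values: CEACAM6 and CEACAM1 were known to lie low with KD2 against the siRNA control, and CEACAM1 to lie high in the siRNA control against the OE control. These comparisons, and those of KD1 with the siRNA control and with KD2, which share arrays with them, are therefore given as descriptions, without a test.

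CEACAMs are adhesion proteins of the immunoglobulin superfamily that bind each other and themselves on neighbouring cells, and they serve as attachment sites for several bacteria of mucosal surfaces. CEACAM1 spans the membrane. Its long-tailed forms carry inhibitory tyrosine motifs that recruit the phosphatases PTPN6 and PTPN11, and interferon gamma can induce it. CEACAM5, the carcinoembryonic antigen used as a tumour marker in blood, CEACAM6 and CEACAM7 are held in the membrane by a lipid (GPI) anchor. CEACAM6 is often raised in colorectal cancer and lowers death of detached cells (anoikis), whereas CEACAM7 marks differentiated colon epithelium and is often lost in tumours.

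CEACAM1 and CEACAM6 were detected in these cells, and the single probes of CEACAM5 and CEACAM7 were not. A probe was called detected on an array at a detection p below 0.01, and 3 of the 6 member probes reached this on at least 2 arrays, the filter used for tests: CEACAM1 probes 1 and 2 and the CEACAM6 probe. Each of these was detected on 12 of 12 arrays. The CEACAM5 probe was detected on 0 arrays, with detection p from 0.0714 to 0.608, and the CEACAM7 probe on 0, with 0.2195 to 0.988. CEACAM1 probe 3 was detected only on siRNA control 1, at 0.0026, with siRNA control 2 next at 0.0623, the value nearest to the threshold on its other side. The detected value nearest to the threshold at the other CEACAM1 probes was 0.0013, at probe 2 on KD2 replicate 2. In all, 19263 of 47231 probes passed. The 3 CEACAM1 probes are annotated to more than 1 RefSeq transcript. Probe sequences were not used here, so whether a probe reads 1 splice form, or also binds the RNA of a related gene, was not tested. CEACAM1 probe 3 was detected on 1 array while CEACAM1 probes 1 and 2 were detected on 12. An undetected probe therefore does not show that its gene is silent, and CEACAM5 and CEACAM7 rest on 1 probe each.

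**Figure D1:**
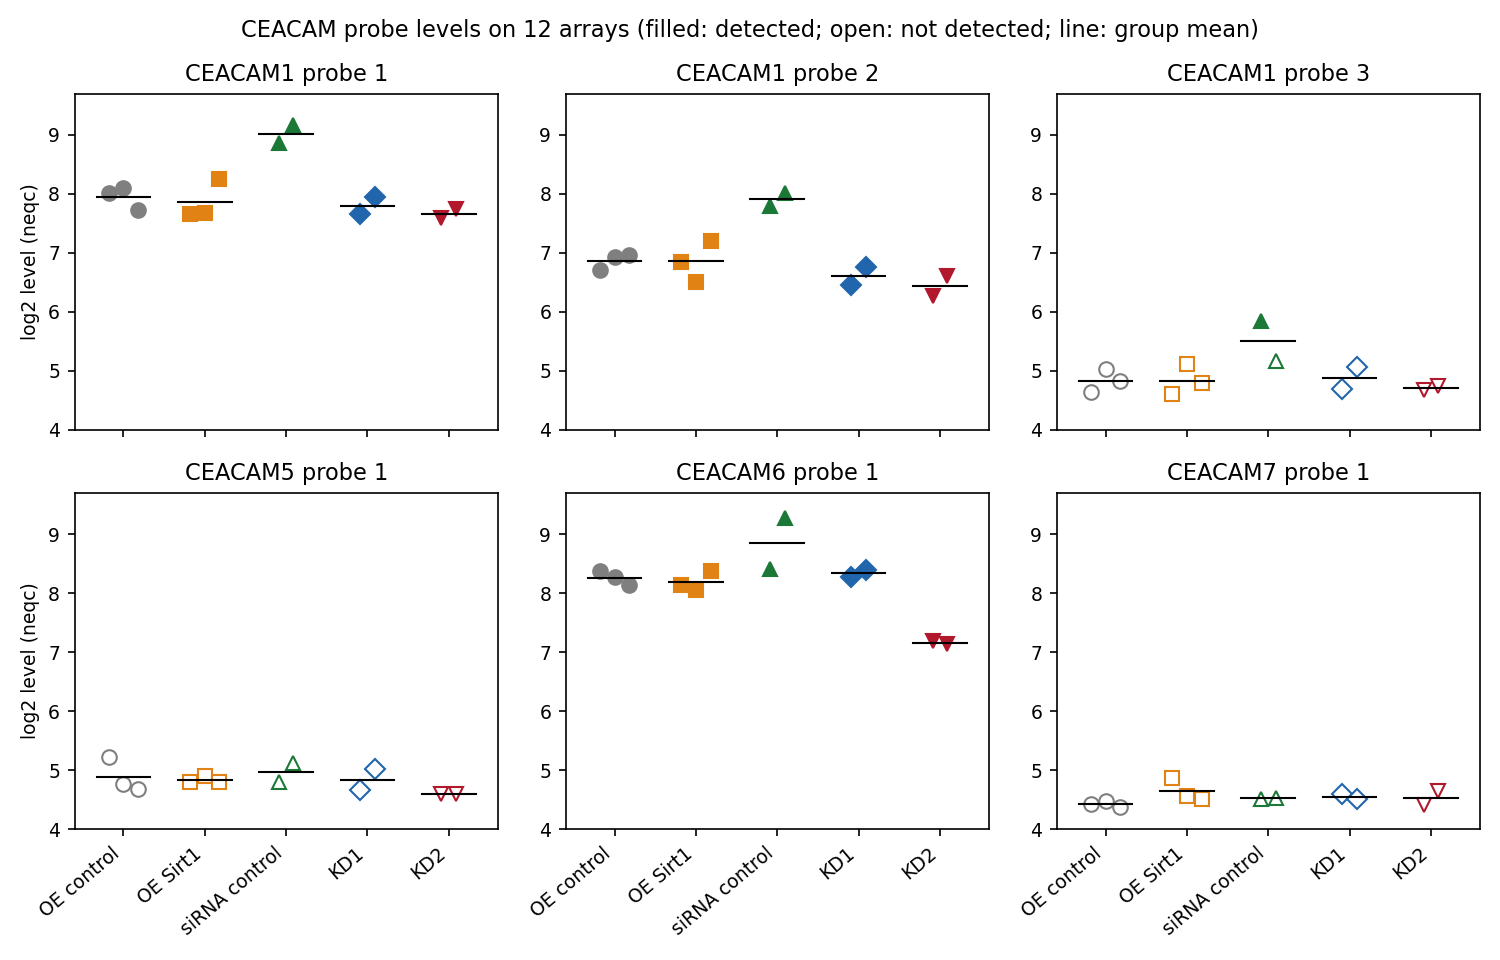
Background-corrected and normalised log2 level of each of the 6 CEACAM probes (1 panel each) on each of the 12 arrays by group. Filled points were detected, open points were not, and the line is the group mean. The CEACAM1 probes 1 and 2 are highest on both siRNA control arrays, the CEACAM6 probe is lowest on both KD2 arrays, and CEACAM5 and CEACAM7 are open throughout. Levels of different probes cannot be compared with each other.

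The 4 genes lie in the CEACAM cluster of chromosome 19, where CEACAM7, CEACAM5 and CEACAM6 follow one another and CEACAM1 stands further along beside CEACAM8. Their promoters are shown because the CEACAM6 probe was detected on all 12 arrays and the single probes of its neighbours CEACAM5 and CEACAM7 on 0, although the promoter sequences are alike. The sequences are RefSeq's, build GRCh38.p14, 250 bases before to 50 bases after the gene start, written 5′ to 3′ on the gene's strand. Capitals mark matches to the motifs searched, of which CEACAM7 has none.
CEACAM6, chr19:41755280-41755579, strand +: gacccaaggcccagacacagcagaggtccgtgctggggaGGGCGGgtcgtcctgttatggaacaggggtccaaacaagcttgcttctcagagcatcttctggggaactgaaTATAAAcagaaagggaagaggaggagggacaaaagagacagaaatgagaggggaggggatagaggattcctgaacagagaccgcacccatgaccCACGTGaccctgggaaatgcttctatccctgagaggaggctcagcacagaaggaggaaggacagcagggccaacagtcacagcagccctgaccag
CEACAM5, chr19:41708376-41708675, strand +: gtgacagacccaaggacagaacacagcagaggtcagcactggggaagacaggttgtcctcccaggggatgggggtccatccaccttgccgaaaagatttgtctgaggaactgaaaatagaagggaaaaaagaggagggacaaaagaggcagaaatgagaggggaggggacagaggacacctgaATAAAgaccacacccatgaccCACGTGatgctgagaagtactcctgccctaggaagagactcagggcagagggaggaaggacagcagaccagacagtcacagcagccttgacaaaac
CEACAM7, chr19:41688221-41688520, strand -: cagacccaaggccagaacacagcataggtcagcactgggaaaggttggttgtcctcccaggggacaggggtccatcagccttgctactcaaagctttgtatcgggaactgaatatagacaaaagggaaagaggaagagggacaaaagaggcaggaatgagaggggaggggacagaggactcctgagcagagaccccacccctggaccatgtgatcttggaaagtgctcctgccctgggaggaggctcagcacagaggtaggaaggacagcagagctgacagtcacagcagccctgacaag
CEACAM1, chr19:42528432-42528731, strand -: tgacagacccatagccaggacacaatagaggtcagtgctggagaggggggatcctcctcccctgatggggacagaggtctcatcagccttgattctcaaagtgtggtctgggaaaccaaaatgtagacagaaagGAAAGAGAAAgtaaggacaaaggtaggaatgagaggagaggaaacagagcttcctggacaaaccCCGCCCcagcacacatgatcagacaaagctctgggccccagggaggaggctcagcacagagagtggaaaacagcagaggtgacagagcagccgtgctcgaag
Over aligned bases the CEACAM6 promoter was 78.8% identical to that of CEACAM5 (230 of 292 bases), 81.5% to CEACAM7 (243 of 298) and 74.8% to CEACAM1 (214 of 286). CEACAM5 and CEACAM7, whose probes were not detected, were 84.7% identical to each other (249 of 294), the highest value of any pair. The motifs searched on both strands, with the share of 35116 promoters of this length that hold each, were the CDX site TTTAT (34.9%), the interferon-stimulated response element (3.57%), the interferon gamma-activated site TTCNNNGAA (7.66%), the E-box CACGTG (7.26%), the Sp1 box GGGCGG (45%), the hypoxia core ACGTG (21.4%), the AP-1 site TGANTCA (7.71%) and the TATA box TATAAA (11.5%). The E-box contains the hypoxia core, and the match to TATAAA in CEACAM6 contains its match to TTTAT.

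CEACAM6 and CEACAM5 hold the E-box, a sequence that the USF factors bind in the CEACAM5 promoter, with its first base at -45 and -46 from the start. To compare this place, the aligned stretches of the 4 genes are given with the 6 aligned bases in capitals.
CEACAM6: cccatgaccCACGTGaccctggga
CEACAM5: cccatgaccCACGTGatgctgaga
CEACAM7: cccctggacCATGTGatcttggaa
CEACAM1: gccccagcaCACATGatcagacaa
CEACAM5, whose probe was not detected, thus carries the same 6 bases as CEACAM6, and CEACAM7 and CEACAM1 carry other letters there. CEACAM1 alone of the 4 holds a match to the interferon-stimulated response element, at -116, and it shares the Sp1 box with CEACAM6. CEACAM6 and CEACAM5 both hold the CDX site and the hypoxia core. CEACAM6 alone holds a match to the TATA box letters, with its first base at -139, and whether it acts as a TATA box was not tested. CEACAM5 holds neither that match nor the Sp1 box. The promoters of CEACAM7 and CEACAM1 hold no match to the CDX site, the E-box, the hypoxia core or the TATA box. None of the 4 holds one to the AP-1 or interferon gamma-activated sites. A match is a description of the letters, and binding was not measured.

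The array facts that touch these results are few. Between 15345 and 17981 probes were detected per array, and raw median intensities ran from 108.6 to 152.7. SIRT1 itself stood at log2 levels of 8.58 and 8.88 on the siRNA control arrays, 7.35 and 7.33 with KD1, and 7.87 and 7.18 with KD2. On the plasmid arrays its probe read 8.53, 8.58 and 8.98 with vector and 8.66, 8.62 and 8.80 with the SIRT1 construct, so the groups overlapped. Of the epithelial markers EPCAM, KRT8, KRT18, VIL1, CDH17, CDX2 and CDH1 were detected on 12 of 12 arrays, KRT20 on 3, FABP1 on 1 and LGALS4 on 0. Of 9 leukocyte markers on the array CD14, LYZ and FCGR3B were detected on 12 of 12 arrays and ITGAM on 1, with PTPRC, CD3D, CD3E, MS4A1 and TYROBP on 0. Of 8 fibroblast markers 6 were detected, COL1A1, COL1A2, COL3A1, LUM, PDGFRA and PDGFRB, on all 12 arrays, and DCN and THY1 on 0. The mean centred level of these 6 was -0.21 to -0.16 in the OE control, -0.11 to -0.04 in OE Sirt1, -0.04 and 0.06 in the siRNA control, 0.14 and 0.35 with KD1, and 0.11 and 0.15 with KD2. Single markers past the threshold were COL3A1 with KD2 (+0.99), PDGFRA between the siRNAs (+0.96 with KD1) and, between the controls, COL1A2 (+0.86), PDGFRB (+0.92) and KRT18 (-0.99), and their part in the CEACAM values was not tested. In bulk RNA, fewer cells of a type and less RNA per cell cannot be told apart.

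CEACAM6 was lowest with KD2 and otherwise varied little except on 1 control array. Its log2 levels were 8.37, 8.27 and 8.13 in the OE control, 8.14, 8.06 and 8.38 in OE Sirt1, 8.41 and 9.27 in the siRNA control, 8.28 and 8.39 with KD1, and 7.18 and 7.14 with KD2. Both KD2 arrays lay below every other array, and siRNA control 2 lay above every other array. The group means were 8.26 ± 0.12 (SD, n = 3), 8.19 ± 0.17 (n = 3), 8.84 ± 0.61 (n = 2), 8.34 ± 0.08 (n = 2) and 7.16 ± 0.03 (n = 2) in the same order. The highest mean, that of the siRNA control, and the lowest, that of KD2, were next to groups whose arrays they did not overlap, but siRNA control 1 was only 0.01 above the higher KD1 array and 0.03 above the highest OE control array. The arrays of the OE control, OE Sirt1 and KD1 overlapped.

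CEACAM1 had another pattern: it was highest in the siRNA control and lower in the other 4 groups. Probe 1 read 8.02, 8.09 and 7.73 in the OE control, 7.66, 7.68 and 8.25 in OE Sirt1, 8.87 and 9.16 in the siRNA control, 7.66 and 7.95 with KD1, and 7.58 and 7.74 with KD2. Both siRNA control arrays lay above all other arrays, and the other 4 groups overlapped one another. Probe 2 read 6.71, 6.93 and 6.96, then 6.85, 6.51 and 7.20, then 7.80 and 8.02, then 6.46 and 6.75, and 6.27 and 6.61, in the same order of groups. It showed the same separation of the siRNA control, and its KD2 arrays lay 0.10 or more below the OE control arrays. Probe 3 was highest on the same pair of control arrays, at 5.84 and 5.18, and between 4.6 and 5.11 elsewhere, where it was not detected, so no fold is given. CEACAM5, between 4.6 and 5.22 over all arrays, and CEACAM7, between 4.38 and 4.87, had no measurable difference because they were not detected.

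**Figure D2:**
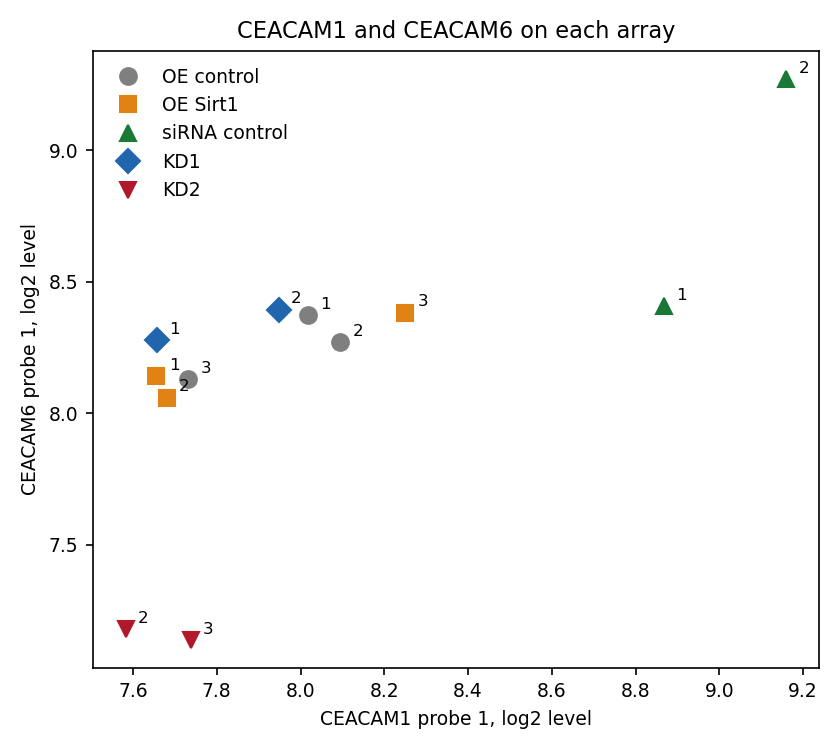
Log2 level of CEACAM1 probe 1 (horizontal) and CEACAM6 (vertical) on each array, with the replicate number beside the point. The siRNA control arrays stand to the right, above 8.8 for CEACAM1, and the KD2 arrays stand below the rest, at 7.14 and 7.18 for CEACAM6.

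Across the 12 arrays the CEACAM1 probes 1 and 2 correlated at Pearson's r = 0.947, and CEACAM6 correlated with CEACAM1 probe 1 at r = 0.716 and with probe 2 at 0.726. With group means removed these values were 0.699, 0.665 and 0.438. The arrays of a group share a treatment, and a quantile step ties all arrays, so these values describe the plot of both genes by array and carry no p. Among 11327 other genes the profile nearest to CEACAM1 was that of BGN, the matrix proteoglycan biglycan (r = 0.921 over 12 arrays), followed by the acyl-CoA thioesterase ACOT11 (0.913), the peptidase PHEX (0.907), the antiviral membrane protein IFITM1 (0.892) and the phosphatase-like MTMR11 (0.891). Within groups, r with CEACAM1 was 0.652 for BGN, 0.828 for ACOT11, 0.649 for PHEX, 0.313 for IFITM1 and 0.382 for MTMR11. The nearest to CEACAM6 were the stress granule protein G3BP2 (0.932), ANKRD49 (0.906), OVCA2 (0.895), METTL4 (0.892) and SLC35E3 (0.888), all with KD2 differences smaller than that of CEACAM6, from -0.67 for ANKRD49 to -0.30 for SLC35E3. No gene was among the nearest 5 of both.

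The SIRT1 plasmid comparison showed no detectable difference at the 3 CEACAM probes that passed. The OE Sirt1 arrays had no part in the choice of the family, but the OE control arrays had, through their CEACAM1 level against the siRNA control. The log2 fold change of OE Sirt1 against OE control was -0.09 for CEACAM1 probe 1 (SE 0.18, 95% interval -0.48 to 0.31), -0.01 for CEACAM1 probe 2 (SE 0.18, interval -0.41 to 0.39) and -0.06 for CEACAM6 (SE 0.19, interval -0.49 to 0.36). The groups overlapped at each probe, and limma's adjusted p was 1.00 for all 3, adjusted over 19263 probes. The intervals leave room for changes of up to about 0.49 on the log2 scale. By limma 0 of 19263 probes were called in this comparison (0%), the smallest adjusted p being 0.560, and 750 (3.89%) had an unadjusted p under 0.05. The SIRT1 probe did not differ either (-0.00332, SE 0.18), so the array does not show how much SIRT1 RNA the construct gave.

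With KD1, CEACAM1 lay lower than in the siRNA control at both detected probes, and CEACAM6 lay closer to it. The log2 fold change was -1.21 at CEACAM1 probe 1 (SE 0.22), 2.31-fold lower, and -1.30 at probe 2 (SE 0.22), 2.47-fold lower. CEACAM6 stood at -0.50 (SE 0.24, 95% interval -1.02 to 0.02). Both KD1 arrays lay below both control arrays at all 3 probes, as did 18.5% of all probes tested, and for CEACAM6 the gap was 0.01. These control arrays had a part in the choice of the family, for their high CEACAM1 and as the base of the KD2 values, so nothing is read from the calls here. Of the 3 probes 0 were called by limma, against 3 of 19263 probes in all (0.0156%), while 1547 (8.03%) had an unadjusted p under 0.05. By size the CEACAM1 probes ranked 18 and 26 from the lowest of 19263, and CEACAM6 ranked 811. Under 3 other settings, the authors' normalised values (-0.89 and -0.71), no background correction (-0.93 and -0.79) and the trend and robust variance model, 2 probes were called, both of CEACAM1. Without siRNA control 2 the CEACAM6 value was -0.07, and without siRNA control 1 it was -0.94.

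With KD2, CEACAM6 lay 3.21-fold below the siRNA control (log2 fold change -1.68, SE 0.24), CEACAM1 probe 1 2.55-fold (-1.35, SE 0.22) and CEACAM1 probe 2 2.77-fold (-1.47, SE 0.22). These values brought the family to attention and are given as a description. All 3 probes were among the 58 called of 19263 (0.301%), from which nothing is read here, and they ranked 4, 10 and 7 from the lowest. Both KD2 arrays lay below both control arrays, by gaps of 1.23 for CEACAM6, 1.13 for CEACAM1 probe 1 and 1.19 for probe 2, as did 22.4% of all probes without regard to the gap. The number of called probes was 0 without KD2 replicate 2, KD2 replicate 3 or siRNA control 2, and 1, CEACAM6, without siRNA control 1. It was also 0 on the siRNA arrays alone, and without 1 array in turn the CEACAM6 value ran from -2.11 to -1.25.

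**Figure D3:**
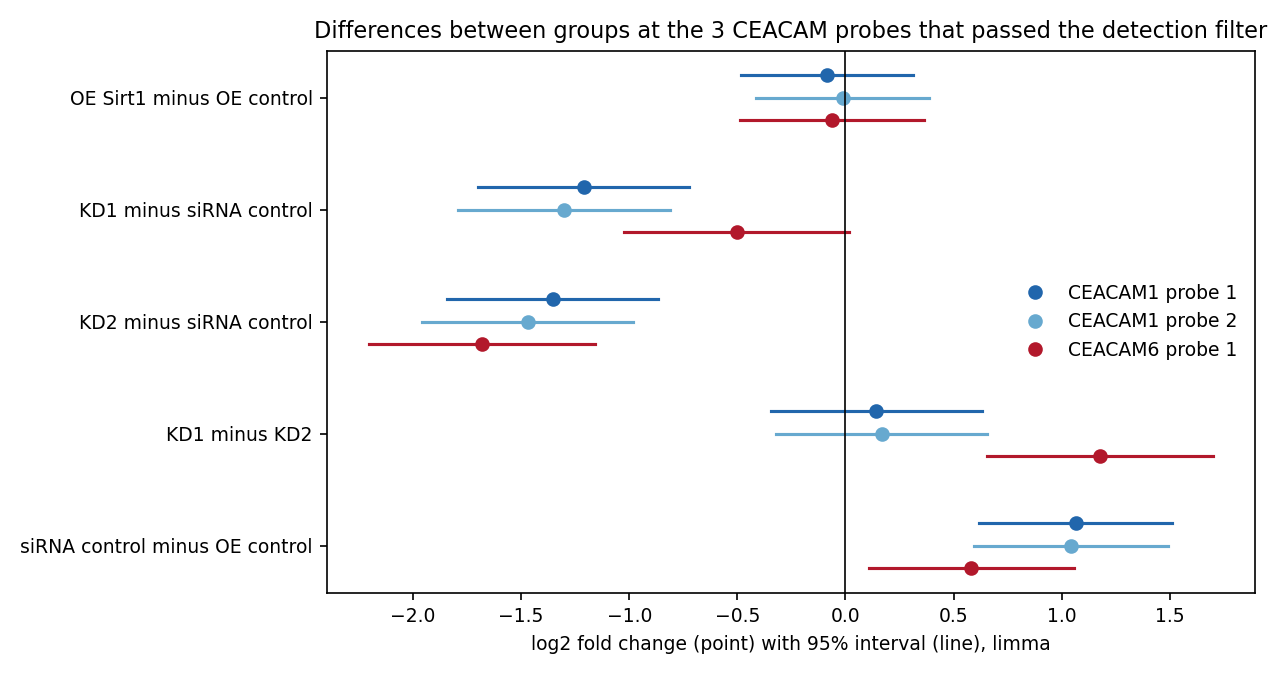
Log2 fold change (points) with its 95% interval from limma (lines) at the 3 CEACAM probes that passed the detection filter, in each of 5 comparisons. CEACAM1 and CEACAM6 lie together near 0 with the plasmid and apart in KD1 minus KD2, where CEACAM6 stands at 1.18 and the CEACAM1 probes at 0.14 and 0.17.

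The KD1 and KD2 arrays were separate at CEACAM6 and overlapped at CEACAM1. KD1 minus KD2 was +1.18 for CEACAM6 (SE 0.24), 2.26-fold, with a gap of 1.10 between the arrays, both KD1 arrays being higher, as at 19.1% of all probes without regard to the gap. It was +0.14 at CEACAM1 probe 1 (SE 0.22, 95% interval -0.35 to 0.63) and +0.17 at probe 2 (SE 0.22, interval -0.32 to 0.66), with overlapping arrays. CEACAM6 ranked 12 from the highest of 19263 probes. This comparison uses the KD2 arrays that brought up the family, and is a description: 0 of the 3 probes were called against 0.296% of all probes, and 1, CEACAM6, was called on the authors' normalised values, without background correction and with the trend and robust model.

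Against the vector arrays, CEACAM1 lay higher in the siRNA control and CEACAM6 lay lower with KD2. The siRNA control minus OE control difference was +1.07 at CEACAM1 probe 1 (SE 0.20), 2.09-fold, +1.04 at probe 2 (SE 0.20), 2.06-fold, and +0.58 for CEACAM6 (SE 0.21), with both siRNA control arrays above the OE control arrays at each, as at 20.3% of all probes. Of the 3 probes 2 were called, both of CEACAM1, against 473 of 19263 (2.46%), and as one of these differences was known beforehand nothing is read from the count. It fell to 0 without any 1 of the 5 control arrays, and the CEACAM6 difference ran from +0.15 without siRNA control 2 to +1.01 without siRNA control 1. KD1 minus OE control was -0.15 (SE 0.20) at CEACAM1 probe 1 and +0.08 (SE 0.21) for CEACAM6, and KD2 minus OE control was -0.29 (SE 0.20) and -1.10 (SE 0.21). These cross the plasmid and siRNA experiments, in which the transfected material and the experiment cannot be told apart.

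An interferon list score was highest on the arrays where CEACAM1 was highest. A hypoxia list score was high there too, but higher on KD1 replicate 2 and KD2 replicate 3. The score of 21 type I interferon response genes was the mean of the genes' levels after centring each. In replicate order it was 0.51 and 0.39 on the siRNA control arrays, -0.19 and -0.31 with KD1, and -0.24 and -0.38 with KD2. It ranged from 0.04 to 0.18 in the OE control and from -0.03 to -0.01 in OE Sirt1. As with CEACAM1, the siRNA control arrays were the highest, and their CEACAM1 level had a part in the choice of the family. Within the siRNA control, KD1 and KD2 the array with the higher score had the lower CEACAM1 probe 1 level. These levels were 8.87 against 9.16, 7.66 against 7.95 and 7.58 against 7.74. OE Sirt1 3 had the highest level of its group, 8.25, and the lowest score. In the OE control the array with the lowest score, 0.04, had the lowest level, 7.73. Of the 21 genes 3 were called with KD1, all lower (IFI27 -1.66, IFIT1 -1.61, IFIT2 -1.07), against 0.0262% of 11458 genes read at 1 probe each. With KD2 6 were called, all lower (IFI27 -2.20 and IFIT1 -1.48 among them), against 0.305% of genes, and between the controls 6, all higher in the siRNA control (IFIT1 1.13, IFI27 1.08), against 2.82%. The score of 19 hypoxia response genes was -0.98 to -0.92 in the OE control, -0.99 to -0.84 in OE Sirt1, 1.17 and 1.00 in the siRNA control, -0.03 and 1.21 with KD1, and 0.72 and 1.51 with KD2. KD1 replicate 1 thus stood apart from the other siRNA arrays in this score, while its CEACAM6 level, 8.28, was close to the 8.39 of the other KD1 array. Without it, KD1 minus siRNA control was -1.07 at CEACAM1 probe 1 and -0.45 for CEACAM6. Between the controls 16 of the 19 hypoxia genes were called, all higher in the siRNA control (list median +1.75), against 2.82% of genes. With KD1 and with KD2 0 of the 19 were called, against 0.0262% and 0.305%. The part of either list in the CEACAM values was not tested.

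**Figure D4:**
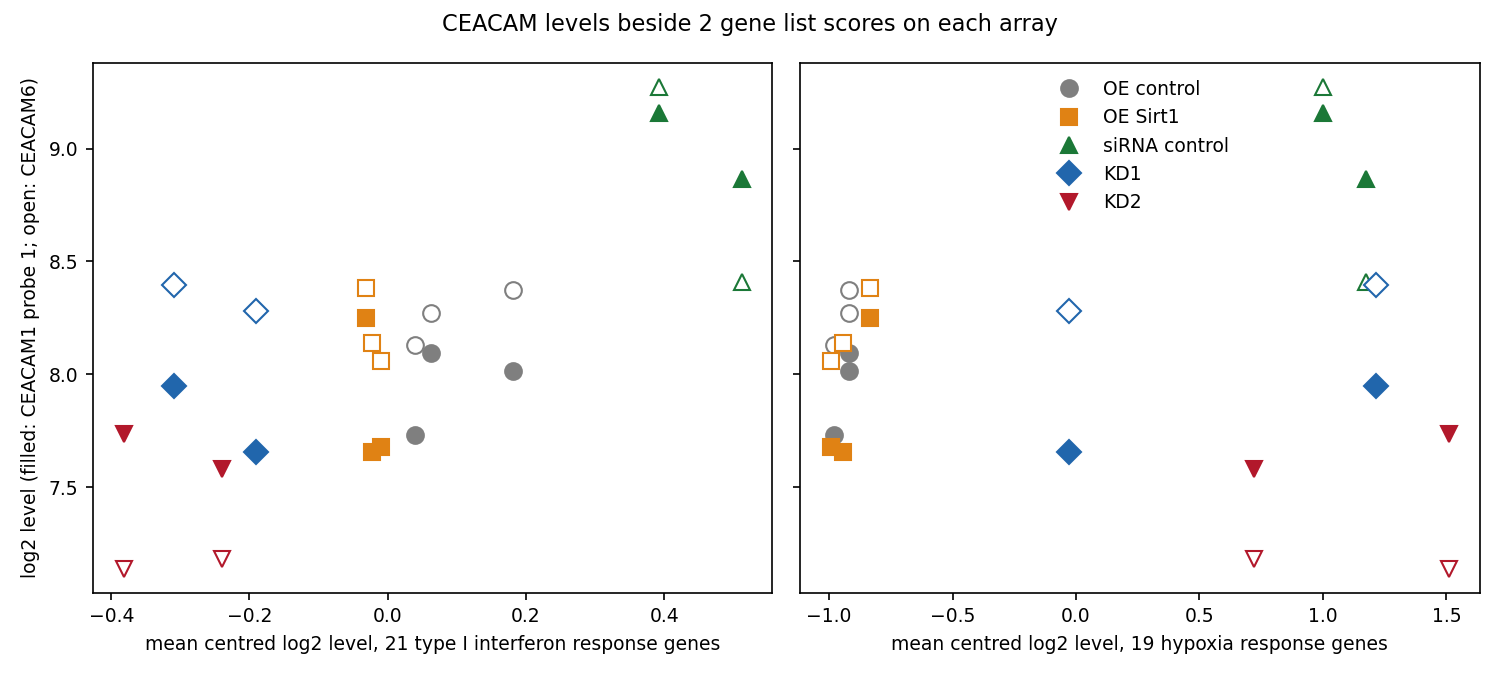
Log2 level of CEACAM1 probe 1 (filled) and CEACAM6 (open) on each array against the mean centred log2 level of 21 interferon response genes (left) and 19 hypoxia response genes (right). The siRNA control arrays stand highest in the interferon score, 0.39 and 0.51, and the plasmid arrays lie at or below -0.84 in the hypoxia score whatever their CEACAM level.

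Probes of other genes of the family were not detected, and those of part of the surrounding genes on the chromosome were. The array carried 27 probes for 18 other CEACAM and PSG genes, among them CEACAM3 and CEACAM8, which are proteins of granulocytes, CEACAM4, CEACAM19 and the pregnancy glycoproteins PSG1 to PSG9, and 0 of the 27 were detected on any array. Of the 24 other protein-coding genes within 6 places of a member on chromosome 19, 10 had a probe that passed. Among the 24 are CEACAM and PSG genes, none of which is among these 10. With KD2 0 of these 10 were called, against 0.305% of 11458 genes at 1 probe each, so nothing particular to the neighbours is read from it. Their log2 fold changes ran from -0.71 (TMEM145) to +0.04 (CD79A). The tested neighbours nearest to a member, 3 places away, were ERICH4 (-0.56, adjusted p = 0.545) and CNFN (-0.36, adjusted p = 0.585). Between the controls 0 of the 10 were called, against 2.82% of genes, with TMEM145 at +1.41 (adjusted p = 0.085).

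The other genes of CEACAM function were read in 6 lists. With the share called among 11458 genes at 1 probe each as background (0% for the plasmid, 0.0262% with KD1, 0.305% with KD2, 0.349% between the siRNAs, 2.82% between the controls), the lists below had 0 members called in the plasmid, KD1 and KD2 comparisons, from which nothing particular to them is read at these shares. The 29 genes that make and attach the GPI anchor of CEACAM5, CEACAM6 and CEACAM7 had a median log2 fold change of 0.03 with KD1 and -0.02 with KD2, against -0.01 and -0.03 over all genes. Nearest to a call were PIGQ (+0.41, adjusted p = 0.433) and PIGH (-0.51, adjusted p = 0.565) with KD1, and PIGW (-0.43, adjusted p = 0.397) and GPAA1 (-0.38, adjusted p = 0.463), a subunit of the enzyme that attaches the anchor, with KD2. Between the controls 2 rose in the siRNA control, PIGZ (+1.64, SE 0.32, limma adjusted p = 0.0327) and PIGH (+1.40, SE 0.19, adjusted p = 0.0171).

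Of the 14 tested signalling partners of CEACAM1 0 were called with KD1 (median -0.11, 13 of 14 below 0) or KD2 (median -0.10, 9 of 14 below 0, highest value 0.20). With KD2 the phosphatase PTPN11 stood at -0.31 (adjusted p = 0.401) and the calcium-binding ANXA2 at -0.27 (adjusted p = 0.474), and with KD1 ANXA2 stood at -0.25 (adjusted p = 0.685) and the adaptor SHC1 at -0.23 (adjusted p = 0.741). Between the controls EGFR, the growth factor receptor, was called, higher in the siRNA control by 1.11 (SE 0.23, adjusted p = 0.0405). Of 15 tested genes of anoikis and CEACAM5 or CEACAM6 signalling, SPTBN1, a spectrin that works with SMAD proteins, stood at -0.64 (adjusted p = 0.298) and the integrin adaptor BCAR1 at -0.55 (adjusted p = 0.320) with KD2, and SMAD3 at -0.40 (adjusted p = 0.580) and ITGB1 at +0.28 (adjusted p = 0.685) with KD1. Their medians were -0.08 with KD1 and -0.16 with KD2. Between the controls the integrin ITGA5 rose in the siRNA control by 1.46 and caveolin CAV1 by 1.05, and HNRNPM, described as a receptor for CEACAM5 and also a splicing factor, fell by 0.57, which makes 3 called of 15 beside the 2.82% of all genes.

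Of 17 tested genes listed as known or proposed transcription and splicing regulators of CEACAM genes, 0 were called with KD1 or KD2. The medians were -0.06 and -0.00284. With KD1 the nuclear receptor ESRRA stood at +0.67 (adjusted p = 0.385) and KLF4 at -0.67 (adjusted p = 0.428). With KD2 NFKB1 stood at -0.46 (adjusted p = 0.189) and SP1, which binds the GC box, at -0.43 (adjusted p = 0.301). NFKB1, an NF-kB subunit, was the 1 member called between the siRNAs, higher with KD1 by 0.76 (SE 0.13, limma adjusted p = 0.0454). CEACAM6 lay in the same direction, as did 32 of the 40 genes called there, and a link of NFKB1 to CEACAM6 was not tested. Between the controls KLF4, a factor of differentiated epithelium, rose in the siRNA control by 0.98 (adjusted p = 0.0345) and HNRNPM fell.

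Other surface and differentiation genes did not pass with either siRNA. Of 18 other epithelial adhesion genes 0 were called, with medians of -0.06 with KD1 and -0.13 with KD2. With KD2 the desmosomal cadherin DSC2 stood at -0.53 (adjusted p = 0.113) and the hyaluronan receptor CD44 at -0.79 (adjusted p = 0.15), and with KD1 DSG2 at -0.46 (adjusted p = 0.544) and PVR at -0.34 (adjusted p = 0.681). Of 14 surface colonocyte genes 0 were called, with medians of -0.12 in both. There MUC13 (-0.88, adjusted p = 0.382) and CDHR5 (-0.59, adjusted p = 0.382) were nearest to a call with KD1, and carbonic anhydrase CA2 (+0.79, adjusted p = 0.061) and CDH17 (-0.44, adjusted p = 0.231) with KD2. CDHR5, a brush border protocadherin, was the 1 colonocyte gene called between the controls, higher in the siRNA control by 0.72 (SE 0.16, adjusted p = 0.0472).

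**Figure D5:**
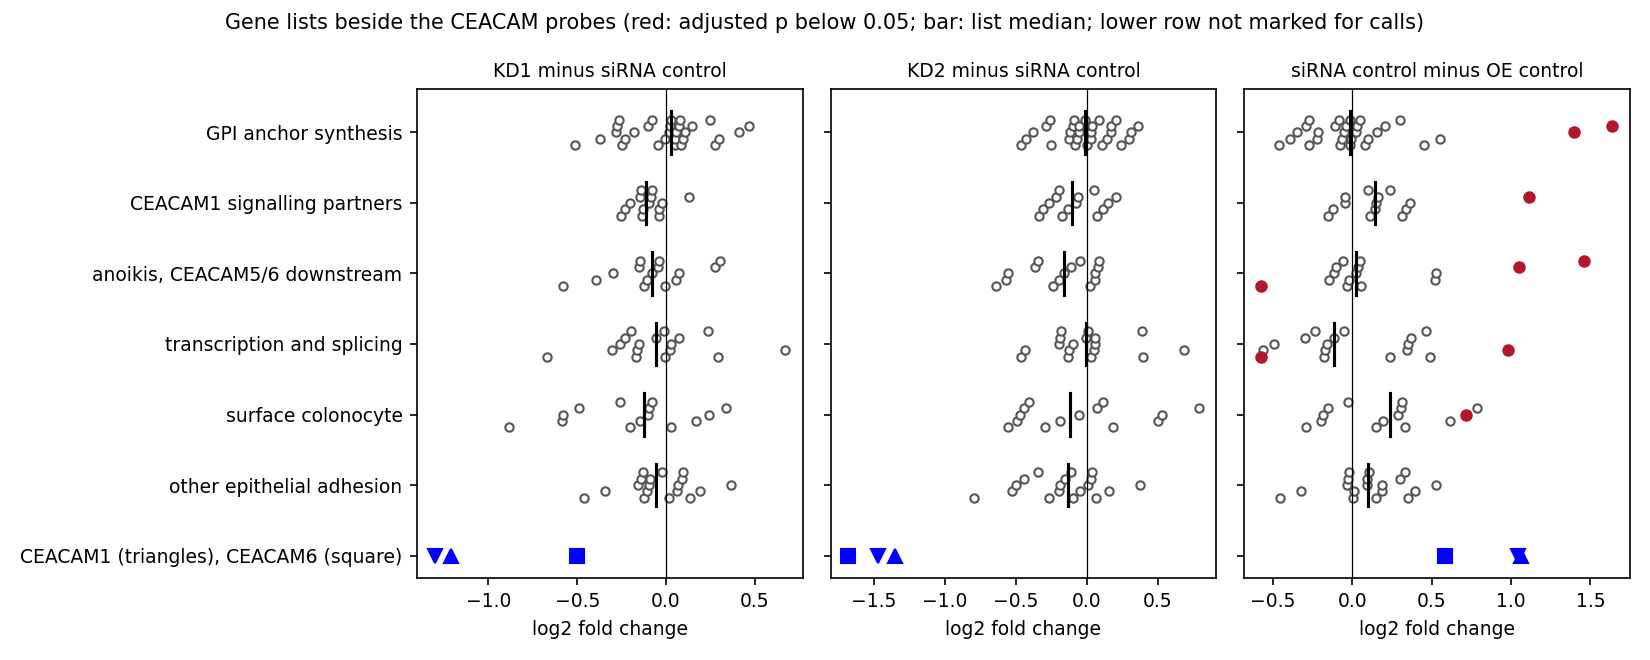
Log2 fold changes of the tested members of 6 gene lists (1 row each, 1 point per gene) in 3 comparisons, with list medians as bars and genes past an adjusted p of 0.05 in red. The lowest row shows the CEACAM1 probes (triangles) and CEACAM6 (square). No listed gene is red with KD1 or KD2, and with these siRNAs the CEACAM1 points lie below all points of the 6 lists.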

How the data were processed

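Total RNA of 12 Caco-2 cultures was labelled with biotin and hybridised to Illumina bead arrays, read with GenomeStudio 2010.1, per the submitters' processing notes. The authors deposited raw probe intensity values without normalization, and, for each, 1 minus its detection p-value. They also deposited log2 values normalised between arrays, by a method not given in the sources used here, which served as an alternative. Probes were limited to the 47231 of the deposited value table. The neqc function (limma 3.58.1, R 4.3.3, offset 16) took background from the detection p-values and applied quantile normalization. Probes detected (p below 0.01) on 2 or more arrays entered 1 limma fit of all 12 arrays with 5 group means (7 residual degrees of freedom), and p-values were adjusted over 19263 probes by Benjamini and Hochberg, threshold 0.05, two-sided. The fit takes 1 variance per probe for all groups, and array number limits precision: the median SE was 0.16 for the plasmid and 0.19 for each siRNA. Promoters were aligned with Biopython 1.88. The pipeline was tested on simulated data.

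List genes were read at the passing probe of highest mean level. Named were list members past the threshold, up to 3 in each direction, or else those with the 2 smallest p. Gene symbols come from the platform annotation. The members and lists were chosen with earlier results of these data known, and the comparisons of KD1 and KD2 with the vector were added after values were seen. Replicate numbers gave no sign of pairing on the plasmid arrays and could not settle it on the siRNA arrays, and the fit used none.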

Additional observations from a re-analysis of the deposited data

How the results depend on the processing

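All values for KD1, KD2 and the control comparison kept their direction: 38 of 38, 38 of 38 and 35 of 35 over probes and settings. The settings reuse the same arrays, and the family was chosen by values of these arrays, so the kept direction is a description and no support. Between the siRNAs 36 of 38 did; without 1 array in turn CEACAM1 probe 1 ran from -0.00342 to 0.29 (negative without KD1 replicate 2) and probe 2 from -0.0039 to 0.34 (negative without KD2 replicate 2). For the plasmid 35 of 44 did. Without quantiles the median of all probes moved to 0.25 in the plasmid comparison, -0.21 with KD1, -0.31 with KD2 and 0.33 between the controls, and the plasmid values turned to 0.20 and 0.25 for CEACAM1 probes 1 and 2 and 0.23 for CEACAM6, which is -0.06, 0.00122 and -0.03 relative to that median. Without 1 plasmid array in turn CEACAM1 probe 1 ran from -0.28 to 0.0175, probe 2 from -0.18 to 0.16 and CEACAM6 from -0.16 to 0.00366, positive in 2, 3 and 1 of 6 cases.

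The number of CEACAM probes called with KD2 was 3, and 0 with the replicate block or on the siRNA arrays alone; leaving out 1 array gave 0 to 1. With KD1 it was 0, and 2 on the authors' normalised values, without background correction or with trend and robust; between the siRNAs the same 3 settings gave 1 in place of 0. Between the controls it was 2, and 1 with 1 probe per gene and 0 without a detection filter; leaving out 1 array gave 0. For the plasmid it was 0 throughout. Fewer arrays leave fewer degrees of freedom; other causes were not tested. Over all probes the KD1 count was 3, and 62 on the authors' values, 60 without background correction, 64 with trend and robust, 20 with 1 probe per gene, 15 without quantiles, 8 with stricter detection and 0 elsewhere. The KD2 count was 58, and 210, 182 and 199 in the first 3 of these, 27 without KD2 replicate 2, 3 or 1 without siRNA control 2 or 1, and 0 without KD2 replicate 3, with the block or on the siRNA arrays alone. Between the siRNAs it was 57, and 166, 151, 152, 100 with stricter detection, 7 without a filter, 0 without quantiles, with the block or on the siRNA arrays alone, and 0 to 21 without 1 array. Between the controls it was 473, and 1217, 1150, 1157, 733 with stricter detection, 1536 without quantiles, 117 without a filter and 0 to 40 without 1 array. Higher calls were 0 of 3, 17 of 58, 41 of 57 and 364 of 473 for KD1, KD2, the siRNAs and the controls. They were 19 of 62, 75 of 210, 102 of 166 and 771 of 1217 on the authors' values, and 2 of 61 (KD2) and 1528 of 1536 (controls) without quantiles.

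Group deviations of same-numbered arrays correlated at -0.15, -0.11 and 0.05 for the plasmid groups, which gave no sign of pairing. The values were 0.00772 for siRNA control and KD1, 0.14 for siRNA control and KD2 and -0.26 for KD1 and KD2. In a group of 2 arrays the deviations mirror each other, so these values cannot settle whether the siRNA arrays were paired. The replicate block was not fitted for the siRNA control against the OE control. With the block 0 CEACAM probes were called for the plasmid and for KD1 minus siRNA control. KD2 minus siRNA control, then resting on KD2 replicate 2, was -1.90 for CEACAM6. Probes near background, CEACAM5 and CEACAM7, have no measurable difference on these arrays.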
